A study of Mus musculus with 15 samples.

Results

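The genes described here are 10 of the 24421 genes measured in a study of Sox9 in mouse brain tumours: Trem2, Tyrobp, Clec7a, Lgals3, Apoe, Lpl, Spp1, Gpnmb, Cst7 and Hpse. Most of them are known from disease-associated microglia and from macrophages that take up lipid. They were taken as a set because Gpnmb and Cst7 were higher in HGG tumours labelled Sox9-GOF than in HGG tumours labelled Sox9-LOF, so that contrast is described below with no test. RNA was sequenced from bulk tumour tissue in 5 groups of 3 libraries. These were HGG Sox9-GOF, HGG Sox9-LOF, EPN Sox9-GOF, EPN control and HGG control, where HGG is a high-grade glioma model, EPN an ependymoma model, GOF a gain and LOF a loss of function. How the tumours were induced, how Sox9 was gained or lost, and the strain, age and sex of the mice are not given in the labels used here. Nor do the labels say whether replicates came from separate mice, so p-values measure only the spread between these libraries.

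Disease-associated microglia are a state of the brain's resident macrophages that was described in mouse models of neurodegeneration. In that state the lipid-sensing receptor TREM2, which signals through its adaptor TYROBP, is needed for the full induction of genes such as Apoe, Lpl, Cst7, Spp1, Gpnmb and Clec7a, while genes of resting microglia such as P2ry12 fall. Macrophages of gliomas are also known to express Spp1 and Gpnmb, and several of these genes can be expressed by tumour cells or other glia.

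Sox9 itself was read first as a check of the labels. It had 1276, 1537 and 1391 rescaled read counts in HGG Sox9-GOF tumours, 739, 579 and 395 in the HGG libraries labelled Sox9-LOF, and 218, 285 and 310.3 in HGG control tumours. It had 2055, 1834 and 2692 in EPN Sox9-GOF tumours and 1045, 1040.2 and 1189 in EPN control tumours. A rescaled read count is the number of reads divided by a size factor shared by all 15 libraries. Sox9 RNA was thus higher in tumours labelled Sox9-LOF than in every HGG control. The log2 fold change was 1.03 with a standard error of 0.295. It was not called, with an adjusted p of 0.184 (limma on log2 values, Benjamini-Hochberg over all genes). The labelled gains were not called either. They were 2.40 ± 0.20 in HGG Sox9-GOF (adjusted p = 0.059) and 1.04 ± 0.18 in EPN Sox9-GOF (adjusted p = 0.133, both limma). In each of these comparisons 0.00% of all genes were called. The RNA level in the libraries labelled Sox9-LOF does not show the loss that the label names, and it cannot tell whether working protein was made. Every direction given below for those libraries rests on the label alone. Depth ran from 4665428 reads in HGG control 2 to 14119140 reads in EPN Sox9-GOF 1. RNA of choroid plexus genes stood out in 3 libraries, called the choroid plexus libraries below. Ttr (transthyretin), a main transcript of that tissue, had 9150.3 counts in HGG Sox9-GOF 3, 23243 in the library labelled Sox9-LOF 3 and 105040.0 in HGG control 1, against at most 360.1 in any other library.

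Promoter sequence is shown for the 4 genes whose values the account turns on, so that the letters can be read beside the values: Gpnmb and Cst7, which chose the set, Hpse, whose values were the most like those of Cst7 within the set, and Spp1, the member called in a test. Each line gives the 250 bases before the RefSeq start site (build GRCm38.p6), 5′ to 3′ on the strand of the gene. Capitals mark the SOX motif ACAAAG or its reverse complement CTTTGT and the PU.1 core GAGGAAG or CTTCCTC, PU.1 being the transcription factor of myeloid cells. Gpnmb lies at chr6:49036268-49036517 on the plus strand, Spp1 at chr5:104434861-104435110 on the plus strand, Cst7 at chr2:150570165-150570414 on the plus strand and Hpse at chr5:100719717-100719966 on the minus strand.
Gpnmb: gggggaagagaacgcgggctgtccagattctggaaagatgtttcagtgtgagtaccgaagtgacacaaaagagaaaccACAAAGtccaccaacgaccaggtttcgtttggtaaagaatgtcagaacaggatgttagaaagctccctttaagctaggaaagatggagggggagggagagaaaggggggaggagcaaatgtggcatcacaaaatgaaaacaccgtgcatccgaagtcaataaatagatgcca
Spp1: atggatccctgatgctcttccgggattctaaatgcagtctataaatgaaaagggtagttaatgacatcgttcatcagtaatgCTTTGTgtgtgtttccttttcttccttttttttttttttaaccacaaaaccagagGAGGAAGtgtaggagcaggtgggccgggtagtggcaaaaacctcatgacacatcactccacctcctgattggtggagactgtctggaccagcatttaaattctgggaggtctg
Cst7: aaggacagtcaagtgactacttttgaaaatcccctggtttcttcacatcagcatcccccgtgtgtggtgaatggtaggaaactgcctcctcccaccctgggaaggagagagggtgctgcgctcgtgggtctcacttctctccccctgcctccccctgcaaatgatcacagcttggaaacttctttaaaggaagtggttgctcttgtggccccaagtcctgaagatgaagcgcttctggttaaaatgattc
Hpse: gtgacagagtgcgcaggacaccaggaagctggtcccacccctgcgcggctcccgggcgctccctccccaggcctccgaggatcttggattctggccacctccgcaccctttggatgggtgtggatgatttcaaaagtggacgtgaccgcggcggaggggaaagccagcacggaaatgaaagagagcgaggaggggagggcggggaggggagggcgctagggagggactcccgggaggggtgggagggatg
The SOX motif stood at position -172 of Gpnmb and -168 of the Spp1 window shown, counted back from the start site, and the PU.1 core at -113 of the same Spp1 window. The E-box CACGTG and the M-box CATGTG (reverse complement CACATG), letters recognised by the MITF and TFE factors of lysosomal genes, were searched on both strands as well, and the windows of these 4 genes held neither. Over 32536 windows of the same length, the SOX motif was found in 16.5%, the PU.1 core in 10.7%, the M-box in 12.3% and the E-box in 6.04%. Of 10 genes, 8 had a window. Trem2 held a PU.1 core at -41, Apoe a SOX motif at -54 before 1 of its start sites, a further Spp1 start site a SOX motif at -243, and the windows of Clec7a and Lgals3 none of these letters. A match is a stretch of letters and says nothing of whether a factor bound there.

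Gpnmb, a glycoprotein of lysosomes and of the cell surface, differed most between the HGG groups. Its counts were 9009, 4047 and 3020.0 in HGG Sox9-GOF tumours, 547, 857 and 534 in tumours labelled Sox9-LOF, 815, 1884 and 1621 in EPN Sox9-GOF tumours, 2547, 2879.5 and 1956 in EPN control tumours and 721, 2109.6 and 316 in HGG control tumours. All 3 HGG Sox9-GOF libraries lay above every other library in the study. The group means ran from 5359 ± 3203 in HGG Sox9-GOF through 2461 ± 468 in EPN control, 1440.0 ± 557 in EPN Sox9-GOF and 1049 ± 941 in HGG control to 646 ± 183 in tumours labelled Sox9-LOF (SD, n = 3 each). The ranges of EPN Sox9-GOF and HGG control overlapped, as did those of HGG control and the libraries labelled Sox9-LOF. Against the libraries labelled Sox9-LOF the log2 fold change was 2.92, the value that chose the gene, and against the HGG controls it was 2.63 with a standard error of 0.75. Neither received a test. Between tumours labelled Sox9-LOF and the HGG controls it was -0.32 ± 0.66 with overlapping groups, and 0.40 without HGG control 2. Without the 3 choroid plexus libraries the value against Sox9-LOF was 3.14 and that of HGG Sox9-GOF against the controls 2.91. In EPN tumours the ranking was the other way round, with all 3 EPN Sox9-GOF libraries below all 3 EPN controls. There the log2 fold change was -0.80 ± 0.32 (SE), and the adjusted p was 0.306 (limma on log2 values, Benjamini-Hochberg over all genes), so the difference did not pass the threshold of 0.05.

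Cst7 encodes cystatin F, an inhibitor of lysosomal cysteine proteases made by immune cells. It had 1462, 514 and 1046 counts in HGG Sox9-GOF tumours, 151, 169 and 170.3 in tumours labelled Sox9-LOF, 354, 478 and 25.9 in EPN Sox9-GOF tumours, 277, 309.9 and 109 in EPN control tumours and 343, 176 and 2147 in HGG control tumours. The HGG Sox9-GOF and Sox9-LOF libraries did not overlap, with a log2 fold change of 2.49. The HGG controls were far apart: HGG control 3 had more Cst7 than any other library, and HGG control 2 lay just above the libraries labelled Sox9-LOF. Those libraries lay below all 3 HGG controls (log2 fold change -1.64 ± 0.85), while the HGG Sox9-GOF libraries overlapped with them (0.89 ± 0.92), again with no test. Without HGG control 3 the first of these values was the one nearest 0, -0.60, and the second reached 1.92. In EPN tumours the log2 fold change was -0.30 ± 1.05 with an adjusted p of 0.923.

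Hpse encodes heparanase, which cleaves heparan sulphate chains of the extracellular matrix. Its counts were 852, 376 and 919.9 in HGG Sox9-GOF tumours, 131, 103 and 104 in tumours labelled Sox9-LOF, 430.4, 412 and 72.0 in EPN Sox9-GOF tumours, 353, 265 and 112 in EPN control tumours and 371, 39.0 and 1257 in HGG control tumours. As for Cst7, HGG control 3 was the highest library of all. The HGG controls lay on both sides of the other HGG groups, with HGG control 2 below every other library. That library was the shallowest, and its Hpse value rests on 19 reads. Between HGG Sox9-GOF and Sox9-LOF the log2 fold change was 2.56 and the groups did not overlap. Against the HGG controls it was 1.35 ± 1.20 in HGG Sox9-GOF (adjusted p = 0.549, limma) and -1.24 ± 1.15 in tumours labelled Sox9-LOF (adjusted p = 0.609, limma). Without HGG control 2 the HGG Sox9-GOF value was -0.01, and without HGG control 3 it was 2.47.

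**Figure D1:**
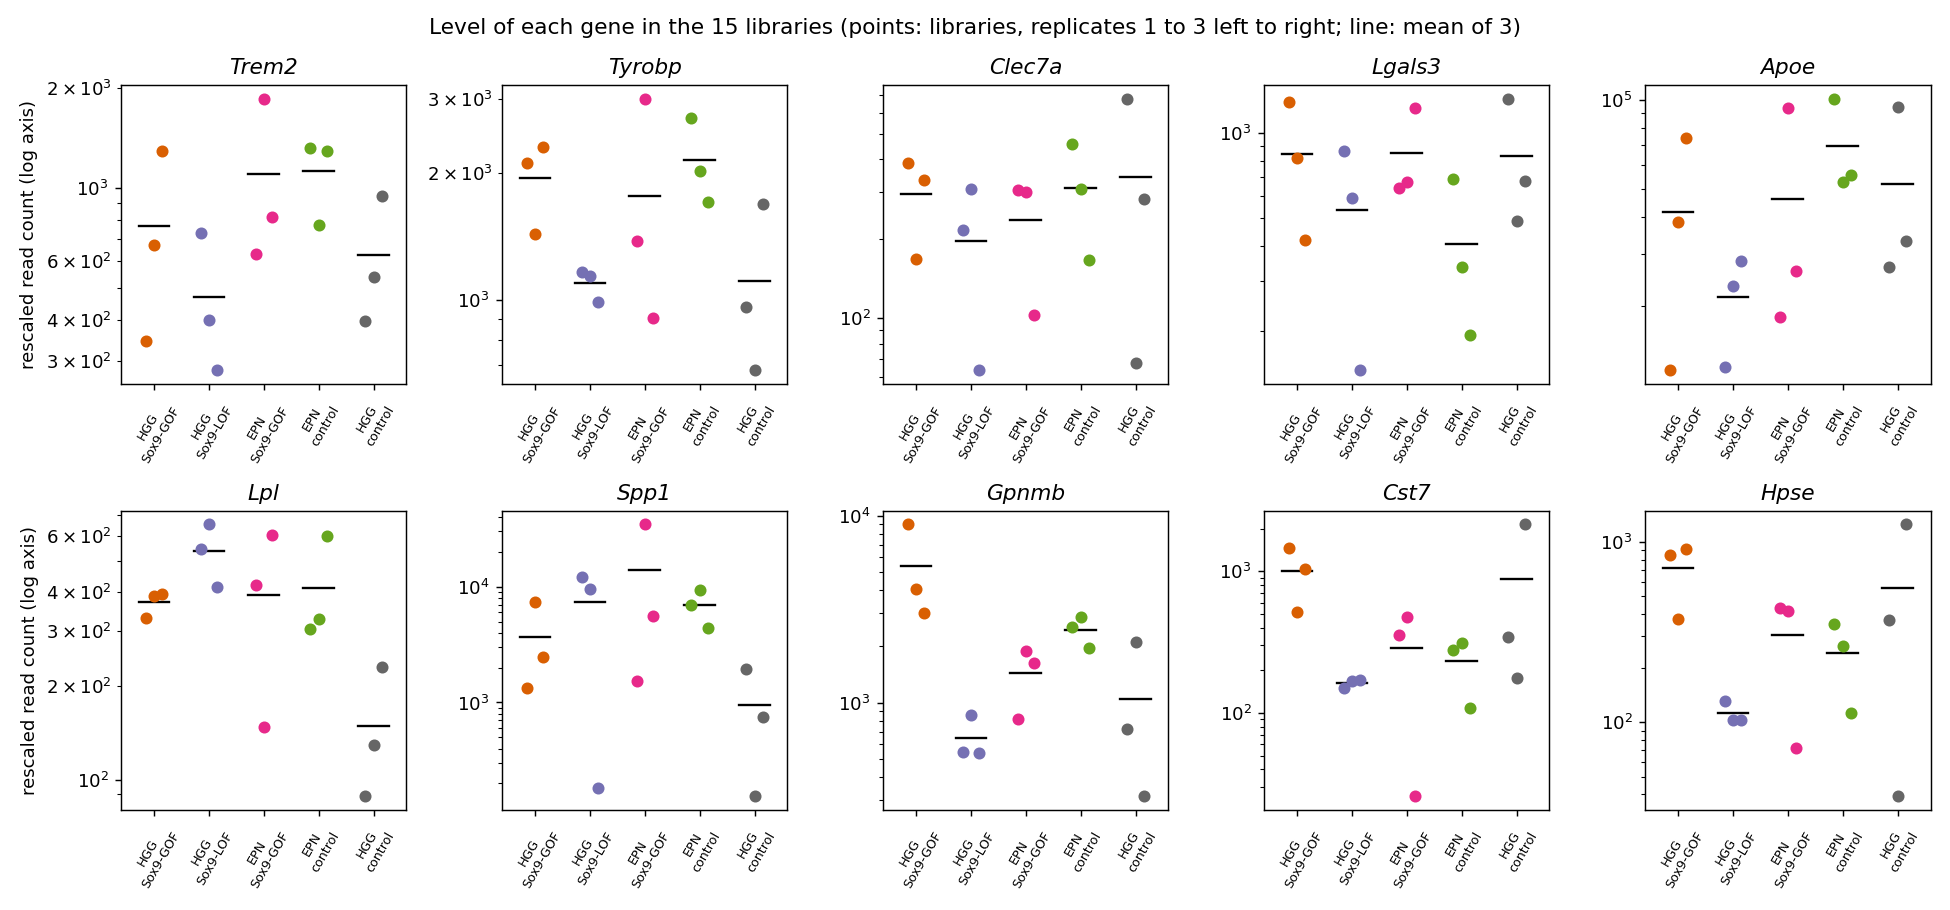
Rescaled read count (log axis) of the 10 genes in the 15 libraries, with 1 point per library and a line at the mean of 3. Gpnmb sits between 3020.0 and 9009 in HGG Sox9-GOF, above every other library, while Cst7 and Hpse are highest in HGG control 3.

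The receptor complex varied less over the libraries than Gpnmb, Cst7 and Hpse. Trem2, the receptor, had 346, 671 and 1289.9 counts in HGG Sox9-GOF tumours, 731, 398 and 282 in tumours labelled Sox9-LOF, 633, 1861 and 818 in EPN Sox9-GOF tumours, 1319, 771 and 1288 in EPN control tumours and 397, 539 and 947 in HGG control tumours. Every pair of groups compared overlapped for Trem2, and the log2 fold change was 0.21 ± 0.54 in HGG Sox9-GOF (adjusted p = 0.853), -0.44 ± 0.45 in tumours labelled Sox9-LOF (adjusted p = 0.646) and -0.10 ± 0.41 in EPN Sox9-GOF (adjusted p = 0.936, all limma). Tyrobp, the adaptor, had 2115, 1429.5 and 2308 counts in HGG Sox9-GOF tumours, 1166, 1136 and 988 in tumours labelled Sox9-LOF, 1377, 3012 and 906 in EPN Sox9-GOF tumours, 2707, 2025 and 1704 in EPN control tumours and 958, 679 and 1694 in HGG control tumours. The HGG Sox9-GOF libraries lay above those labelled Sox9-LOF without overlap, and overlapped with the HGG controls (log2 fold change 0.91 ± 0.37, adjusted p = 0.215, limma).

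Clec7a, the beta-glucan receptor dectin-1, is annotated as a polymorphic pseudogene in the GENCODE annotation used. It ranged from 63.4 counts in the library labelled Sox9-LOF 3 to 681 in HGG control 1. Its groups overlapped in all comparisons, with log2 fold changes of 0.27 ± 0.83 in HGG Sox9-GOF, -0.55 ± 0.94 in tumours labelled Sox9-LOF and -0.39 ± 0.52 in EPN Sox9-GOF. Lgals3, the galactose-binding lectin galectin-3, had 642, 672 and 1234 counts in EPN Sox9-GOF tumours and 689.8, 335 and 193 in EPN control tumours. EPN control 1 was inside the range of the EPN Sox9-GOF libraries, and the log2 fold change of 1.24 ± 0.47 had an adjusted p of 0.278 (limma). In HGG tumours Lgals3 had 1291, 819.7 and 418 counts in the Sox9-GOF libraries, 866, 589 and 145 in tumours labelled Sox9-LOF and 1328, 488 and 679.6 in the controls.

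The lipid genes differed in pattern. Apoe, the main lipid-carrying apolipoprotein of the brain, had the highest level per length. It had 29642 counts per kilobase of transcript in HGG Sox9-GOF, 15199.5 in tumours labelled Sox9-LOF, 32723 in EPN Sox9-GOF, 49569 in EPN control and 36734 in HGG control (group means). The next highest mean per kilobase in HGG Sox9-GOF was that of Tyrobp, 3459, and the lowest was that of Lpl, 89.9. Apoe varied widely inside groups: its counts were 12129.7, 38627 and 74450.3 in HGG Sox9-GOF tumours, 12408, 23382 and 28413 in tumours labelled Sox9-LOF and 27110.5, 94717 and 33338 in HGG control tumours. Its log2 fold change was -0.41 ± 0.86 in HGG Sox9-GOF, -1.13 ± 0.62 in tumours labelled Sox9-LOF and -0.86 ± 0.62 in EPN Sox9-GOF, with adjusted p of 0.819, 0.395 and 0.578 (limma).

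Lpl, lipoprotein lipase, which releases fatty acids from lipoproteins, was the member with the most even levels inside the HGG Sox9-GOF group. It had 330.2, 388 and 392 counts in HGG Sox9-GOF tumours, 547, 656 and 414 in tumours labelled Sox9-LOF, 419, 147 and 608 in EPN Sox9-GOF tumours, 304, 327 and 600.5 in EPN control tumours and 88.9, 129 and 229 in HGG control tumours. The 3 HGG controls were lower than every HGG Sox9-GOF, Sox9-LOF and EPN control library. Against those controls the log2 fold change was 1.43 ± 0.36 in HGG Sox9-GOF (adjusted p = 0.0911, limma) and 1.92 ± 0.39 in tumours labelled Sox9-LOF (adjusted p = 0.143, limma), and neither passed the threshold. DESeq2 on the recovered reads gave 1.32 with an adjusted p of 0.0174 and 1.84 with an adjusted p of 0.0024. DESeq2 called 7.29% of all genes higher in the first comparison and 4.25% in the second. With the spread shared by all 15 libraries, the Sox9-LOF value had an adjusted p of 0.0297 (limma). That setting also used the reads rescaled over all 15 libraries, and the share of all genes it called is not given here. Both comparisons, and that of the EPN controls below, use the same 3 HGG controls. In contrast to Gpnmb, Cst7 and Hpse, Lpl was lower in HGG Sox9-GOF than in tumours labelled Sox9-LOF (log2 fold change -0.52), also without overlap.

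Spp1, osteopontin, a secreted ligand of integrins and CD44, had the widest range of the set, 222-fold from the lowest to the highest library. It had 1324, 7342 and 2447 counts in HGG Sox9-GOF tumours, 12215, 9493 and 182 in tumours labelled Sox9-LOF, 1545, 34527 and 5561 in EPN Sox9-GOF tumours, 6923, 9363 and 4373 in EPN control tumours and 1958, 156 and 748 in HGG control tumours. The EPN controls lay closest together. The library labelled Sox9-LOF 3, which carried choroid plexus RNA, was the low one of its group. The log2 fold change was 2.25 ± 1.02 in HGG Sox9-GOF (adjusted p = 0.252), 2.17 ± 1.74 in tumours labelled Sox9-LOF (adjusted p = 0.552) and 0.07 ± 1.00 in EPN Sox9-GOF (adjusted p = 0.983, all limma). Without the choroid plexus libraries the 2 HGG values were 3.21 and 4.97.

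**Figure D2:**
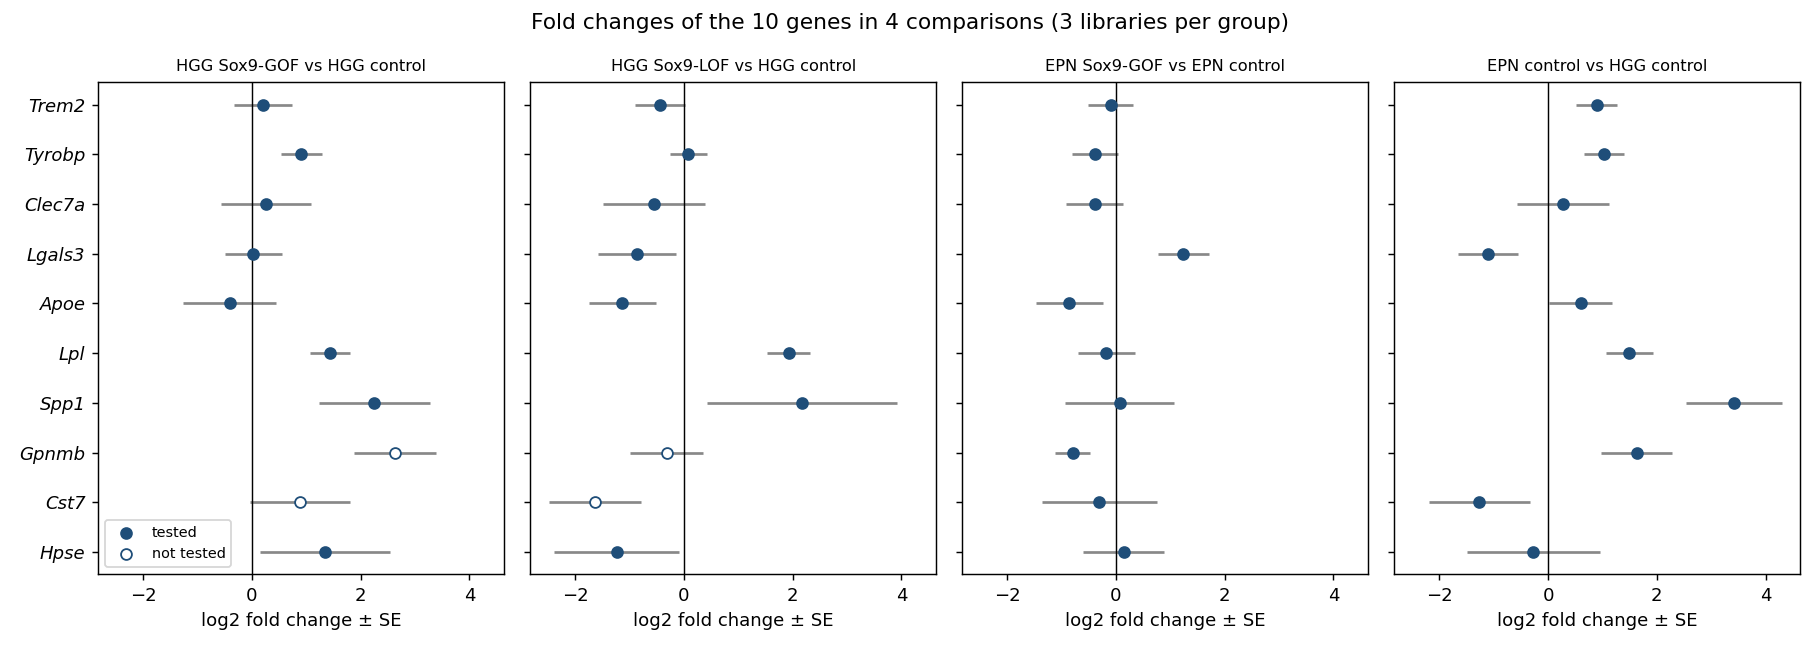
Log2 fold change with its standard error (bars) of the 10 genes in 4 comparisons of 3 against 3 libraries, with open points where no test was made. Spp1 is highest in EPN control against HGG control at 3.42, and Gpnmb is at 2.63 in HGG Sox9-GOF and at -0.80 in EPN Sox9-GOF.

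Over the 10 genes, 9 of 10 had a higher mean log2 level in HGG Sox9-GOF than in tumours labelled Sox9-LOF, and 4 of 10 (Gpnmb, Cst7, Hpse and Tyrobp) did so without overlap of the groups. The log2 difference for Spp1 was 0.05, and its mean count was lower, 3704 in HGG Sox9-GOF and 7297 in tumours labelled Sox9-LOF. Among all 14873 genes compared, 47.2% had a higher mean log2 level, and 6.00% were higher and 7.60% lower without overlap. Of 14 genes that all macrophages express, 13 had a higher mean log2 level, and 8 were higher without overlap. The set was chosen on that contrast, so nothing is read from these counts. Without the choroid plexus libraries, 6 of 10 were higher. Against the HGG controls, 0 of 8 genes tested were called in HGG Sox9-GOF, where 0.00% of 15092 genes were called, 3420 had an unadjusted p under 0.05, edgeR called 0 and DESeq2 2260. The groups did not overlap for 2 of 10, Gpnmb and Lpl, both higher, against 15.3% of all genes higher and 15.2% lower. In the libraries labelled Sox9-LOF 0 of 8 were called, where 0.00% of 14861 genes were called, 2564 had an unadjusted p under 0.05, edgeR called 0 and DESeq2 1339. There Lpl was higher and Cst7 lower without overlap, against 12.8% and 11.7% of all genes. The median log2 fold change was 0.90 in HGG Sox9-GOF against 0.03 over all genes, and -0.49 in tumours labelled Sox9-LOF against 0.01. The medians and the counts without overlap in these 2 comparisons include Gpnmb and Cst7, whose values in these libraries chose the set. Nothing is read from them. In EPN Sox9-GOF 0 of 10 were called, where 0.00% of 14591 genes were called, 2196 had an unadjusted p under 0.05, edgeR called 0 and DESeq2 842. Gpnmb was the 1 gene of 10 without overlap, lower, as were 12.5% of all genes while 9.45% were higher, and the median was -0.24 against 0.04. With 3 libraries a group, the comparison cannot give an exact permutation p below 0.1.

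The EPN controls and the HGG controls compare the tumour models without the labelled changes of Sox9, and neither group entered the choice of the set. Sox9 itself was 4.05-fold higher in EPN control (adjusted p = 0.00427, limma). Spp1 was called, 10.7-fold higher in EPN control (log2 fold change 3.42 ± 0.88, adjusted p = 0.0472, limma), where 15.3% of 15105 genes were called, 9.51% higher and 5.83% lower. All 3 EPN controls lay above all 3 HGG controls. The call is at the threshold: the adjusted p was 0.0734 with edgeR, 0.107 with the spread shared by all libraries and 0.0807 with the replicate number as a block. Without EPN control 1, 2 or 3 it was 0.14, 0.166 and 0.108, and without HGG control 3 it was 0.0822. Lpl (1.49 ± 0.43, adjusted p = 0.0635) and Tyrobp (1.03 ± 0.37, adjusted p = 0.106, both limma) were also higher without overlap, as were 21.9% of all genes, while 18.4% were lower. Of all genes, edgeR called 8.51% and DESeq2 14.6% higher, and DESeq2 called Lpl as well (adjusted p = 0.0182). With the block, Lpl had an adjusted p of 0.0392. Gpnmb was at 1.63 ± 0.65 (adjusted p = 0.136, limma), and without HGG control 2 it was at 2.35 with an adjusted p of 0.0219. Cst7 was at -1.26 ± 0.94 and Lgals3 at -1.10 ± 0.55. Markers of border macrophages moved with this comparison: their summed count was 3175 to 4953 in EPN control tumours and 195 to 1364 in HGG control tumours, 3 of 8 tested were called higher, and Mrc1 stood at 5.08 on the log2 scale (adjusted p = 0.0234, limma). Endothelial markers summed to 3366.5 to 4597 in EPN control tumours and 663 to 1562 in HGG control tumours, and 5 of 8 were called higher. Other lists moved as well. Of pericyte genes 4 of 8 were called higher, and of genes of resting microglia 4 of 14. Genes of monocyte-derived macrophages summed to 24097 to 44173 in EPN control tumours and 4912 to 16876 in HGG control tumours, with 1 of 13 called. Of oligodendrocyte genes, 7 of 8 were negative and 0 were called. The part of any of these cells in the Spp1 result was not tested.

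The Sox9-GOF effect in EPN was then set against that in HGG, in a single fit over 12 libraries. Of the 8 genes tested, 0 were called, where 6.10% of 15088 genes were called by limma, 4101 had an unadjusted p under 0.05, edgeR called 728 and DESeq2 2468. Lpl had a difference of -1.63 ± 0.71 (adjusted p = 0.166) and Tyrobp of -1.32 ± 0.62 (adjusted p = 0.197, both limma). The difference for Gpnmb was -3.45 ± 0.88, given with no test.

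Bulk RNA cannot tell fewer cells of a type from less RNA per cell, so the genes were also set against 14 genes that all macrophages express, such as Csf1r and Itgam. The mean log2 level of these 14 was 10.55 ± 0.47 in HGG Sox9-GOF, 9.60 ± 0.11 in tumours labelled Sox9-LOF, 10.62 ± 0.71 in EPN Sox9-GOF, 10.94 ± 0.47 in EPN control and 9.95 ± 1.41 in HGG control (SD, n = 3 each). HGG control 2 was the lowest library, at 8.37, and HGG control 3 was at 11.06. Relative to that level, Gpnmb stood at 2.27, 1.97 and 0.80 in HGG Sox9-GOF tumours, at -0.63, 0.20 and -0.47 in tumours labelled Sox9-LOF and at -0.93, 2.67 and -2.75 in HGG control tumours. HGG control 2 lay above all HGG Sox9-GOF and Sox9-LOF libraries. On the contrast that chose the set, HGG Sox9-GOF against Sox9-LOF, this measure takes the same amount from the log2 fold change of every gene. It subtracts the same macrophage level from all genes of a library. Gpnmb stood at 1.98 by this measure and 2.92 as log2 fold change. Cst7 stood at 1.55 and 2.49, and Hpse at 1.62 and 2.56. Every other member was negative by this measure. The values were -0.32 for Trem2, -0.14 for Tyrobp, -0.16 for Clec7a and -0.086 for Lgals3. Apoe stood at -0.25, Spp1 at -0.89 and Lpl at -1.47, the last without overlap. These are descriptions on the contrast that chose the set, and nothing is read from them about macrophage content. Lpl relative to macrophage genes was higher in tumours labelled Sox9-LOF than in HGG control tumours by 2.28, without overlap, and Spp1 was higher in EPN control than in HGG control by 2.44, without overlap. Cst7 and Lgals3 were lower in EPN control than in HGG control by that measure, with differences of -2.25 and -2.08 and no overlap. Tyrobp overlapped in every comparison of this measure. The measure was chosen after the values had been seen and carries no test.

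**Figure D3:**
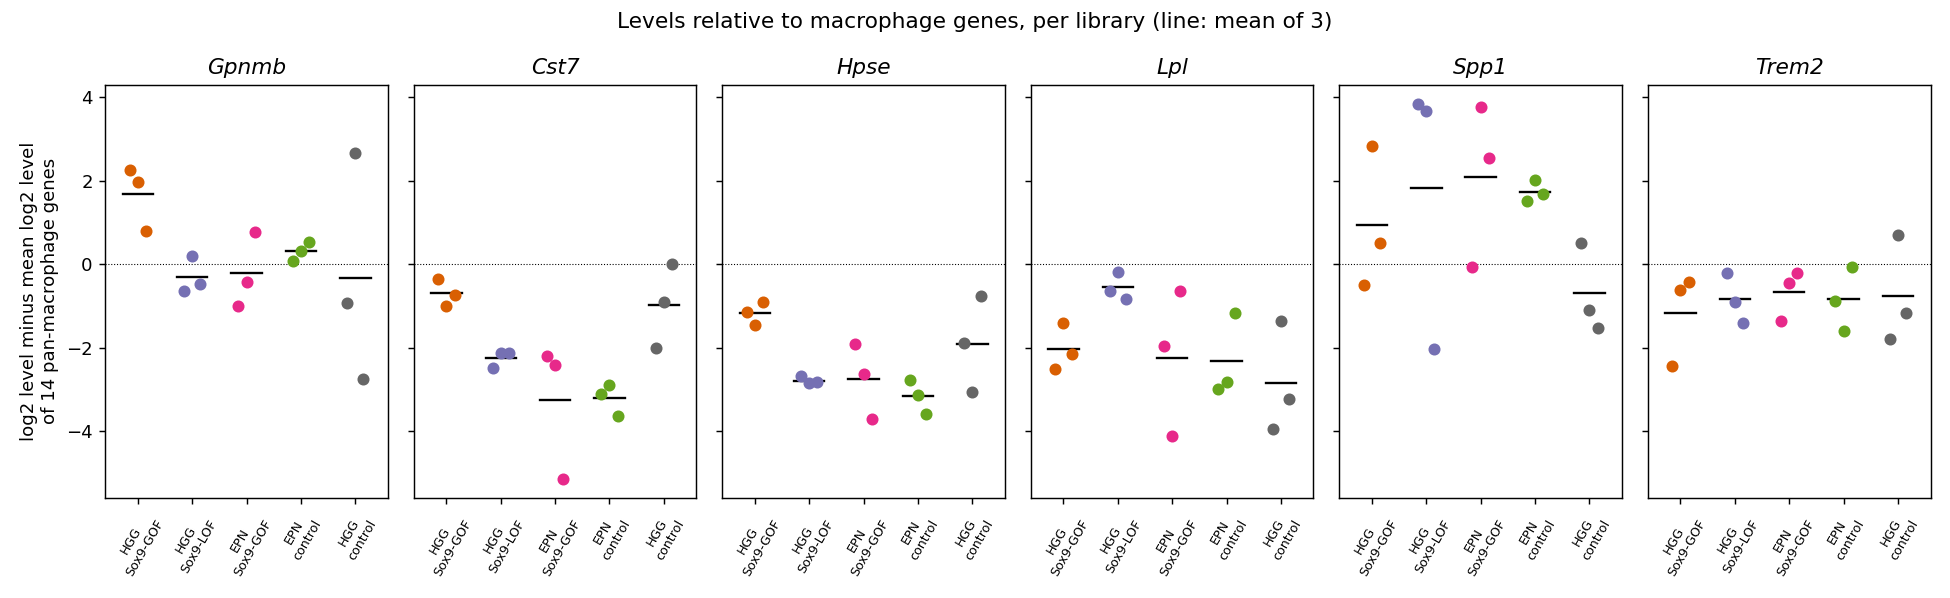
Log2 level of 6 genes minus the mean log2 level of 14 pan-macrophage genes in each library (y axis), with 1 point per library and a line at the mean of 3. Gpnmb is at 0.80 to 2.27 in HGG Sox9-GOF and at -0.63 to 0.20 in tumours labelled Sox9-LOF, while the HGG controls run from -2.75 to 2.67.

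The genes that chose the set, Gpnmb and Cst7, were weakly related over the 15 libraries. On log2 counts their Pearson r was 0.147, and with the group means taken out it was -0.39, and no pair that holds either gene was tested. The highest r of the 45 pairs among the 10 genes was that of Cst7 with Hpse, 0.873, with a Spearman's rho of 0.896. Without the 2 libraries farthest from the median of Cst7, r was 0.874, and within groups it was 0.885. Gpnmb and Hpse had r = 0.143, and -0.629 within groups. Of the 28 pairs tested, 0 passed Benjamini-Hochberg adjustment over these pairs (two-sided permutation tests with 100000 resamples). Trem2 and Tyrobp, receptor and adaptor, had r = 0.636 (permutation p = 0.0114, adjusted p = 0.0969) and rho = 0.629 (permutation p = 0.0138, adjusted p = 0.167). Without the 2 libraries farthest from the median of Trem2, r was 0.489, and within groups it was 0.543. The median r over the 45 pairs was 0.147, and 34 were positive. Cst7 is also made by lymphocytes, whose 9 markers were therefore read beside it. In HGG Sox9-GOF and in tumours labelled Sox9-LOF, where 0.00% of all genes were called, 0 of these 9 markers were called. Their summed count was 140 to 549 in HGG Sox9-GOF, 30.6 to 314 in tumours labelled Sox9-LOF, 115 to 2214 in EPN Sox9-GOF, 266 to 1063 in EPN control and 22.6 to 3316 in HGG control. HGG control 3 had the highest sum and the most Cst7. The next highest sums, 2214 in EPN Sox9-GOF 1 and 1632 in HGG control 1, went with 354 and 343 counts of Cst7. The sum mixes B-cell and T-cell genes, so it does not follow 1 kind of lymphocyte. The B-cell gene Cd79a alone had 1693 counts in EPN Sox9-GOF 1. The T-cell gene Cd8a had 112 there and 725 in HGG control 3. The part of lymphocytes in the Cst7 values was not tested.

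**Figure D4:**
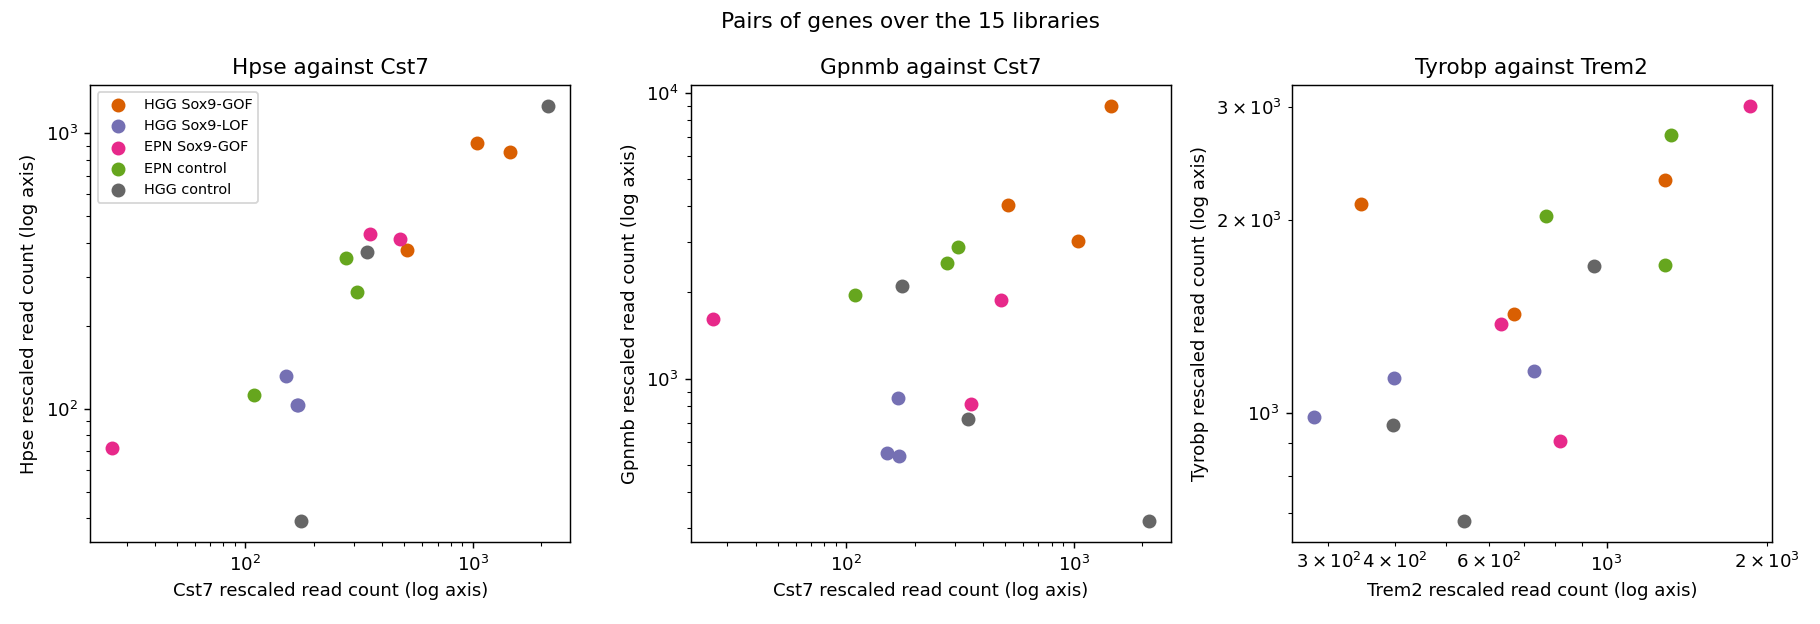
Rescaled read counts (log axes) of Hpse against Cst7, Gpnmb against Cst7 and Tyrobp against Trem2, with 1 point per library coloured by group. Hpse and Cst7 lie along a line through all 5 groups (r = 0.873), whereas Gpnmb and Cst7 are scattered (r = 0.147).

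Among 12384 other genes with a mean of at least 50, the pattern most like that of Cst7 over the 15 libraries was that of Entpd1 (r = 0.913), the ectonucleotidase CD39. It was followed by H2-Oa (0.905), a subunit of the class II antigen-loading modulator, Cd37 (0.896), a tetraspanin of leukocytes, Plcb2 (0.891), a phospholipase C of blood cells, and Havcr2 (0.880), the receptor TIM-3. For Gpnmb the nearest were Igbp1 (0.777), Dennd6a (0.773), Lect1 (0.763), Nat2 (0.752) and Stx7 (0.725), a syntaxin of late endosomes. With the group means taken out, r was 0.513, 0.531, 0.27, 0.344 and 0.587 for these, and 0.885 to 0.961 for those of Cst7. These r are descriptions over 15 libraries that share their group structure, with no test.

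Spread inside the groups was also read for the whole set. The median SD of log2 counts over the 10 genes was 0.79 in HGG Sox9-GOF, 0.50 in tumours labelled Sox9-LOF, 0.98 in EPN Sox9-GOF, 0.55 in EPN control and 1.17 in HGG control, against 0.30, 0.32, 0.35, 0.26 and 0.46 over 15109 genes in the same groups.

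Other genes of the same pathways were read from lists of known roles. In HGG Sox9-GOF and in tumours labelled Sox9-LOF, 0.00% of all genes were called. A count of 0 called there is therefore no result about a list, here or in the lists below. Of 30 further genes of disease-associated microglia, 29 were tested in HGG Sox9-GOF and 0 were called, with 19 positive, 10 negative and a median log2 fold change of 0.08 against 0.03 over all genes. In EPN control against HGG control, 5 were called higher and 2 lower of 30, where 9.51% of all genes were called higher and 5.83% lower. Among those called higher was the growth factor Igf1 (2.42 ± 0.57, adjusted p = 0.0365, limma). Of 14 genes of resting microglia, 0 were called in HGG Sox9-GOF, with 13 of 14 positive, as were 51.9% of all genes, and a median of 1.05. Gpr34, a lysophospholipid receptor of resting microglia, had 105, 465 and 557 counts in HGG Sox9-GOF tumours, 545, 243 and 160.3 in tumours labelled Sox9-LOF and 11.1, 65.6 and 14.9 in HGG control tumours. Its log2 fold change was 3.72 ± 0.88 in HGG Sox9-GOF (adjusted p = 0.0837, limma), and the Sox9-GOF effect in EPN was lower than in HGG by 4.98 (adjusted p = 0.0224, limma). P2ry12, the purinergic receptor that marks resting microglia, had 611, 906 and 1293 counts in HGG Sox9-GOF tumours, 509.7, 447 and 645.5 in tumours labelled Sox9-LOF and 84.9, 324 and 289.7 in HGG control tumours. The Sox9-GOF effect on P2ry12 in EPN was lower than in HGG by 3.01 (adjusted p = 0.0269, limma). In tumours labelled Sox9-LOF, set against the same HGG controls, 12 of 14 genes of resting microglia were positive with a median of 0.62, 0 were called, and Gpr34 was at 3.56 ± 0.76 (adjusted p = 0.144, limma). The part of resting microglia in the results on the set was not tested.

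Lipid handling was followed in 27 genes. Of these, 24 were tested in HGG Sox9-GOF, 12 of them positive, and 0 were called, where 0.00% of all genes were called. Abca1, which exports cholesterol to apolipoproteins such as that of Apoe, had 2242, 2569 and 4313 counts in HGG Sox9-GOF tumours, 1751, 1523 and 1615 in tumours labelled Sox9-LOF, 2911, 1628 and 4324 in EPN Sox9-GOF tumours, 3000.0, 3938 and 3378 in EPN control tumours and 698, 1275 and 774 in HGG control tumours. It was higher without overlap in HGG Sox9-GOF than in HGG control (1.75 ± 0.35, adjusted p = 0.0696, limma), as were 15.3% of all genes. In tumours labelled Sox9-LOF it was also above the same controls without overlap (0.87 ± 0.27, adjusted p = 0.202, limma), as were 12.8% of all genes. In EPN control against HGG control, 6 of 25 lipid genes tested were called higher and 1 lower, where 9.51% and 5.83% of all genes were. Abca1 was called higher (1.95 ± 0.27, adjusted p = 0.00857, limma). Nr1h2, the sterol receptor LXR-beta, was called lower (-0.85 ± 0.16, adjusted p = 0.0203, limma). For the difference between the GOF effects (EPN minus HGG), 1 of 26 was called higher and 2 lower, where 6.10% of all genes were called. Nr1h2 was at 1.295 (adjusted p = 0.0208) and Abca1 at -2.04 (adjusted p = 0.0456, both limma). Against the HGG controls, Nr1h2 was at -1.11 ± 0.18 in HGG Sox9-GOF (adjusted p = 0.0594, limma), and Lmf1, needed for the folding of Lpl's product, at -1.32 ± 0.30 (adjusted p = 0.0784, limma). Both were also below the same HGG controls without overlap in tumours labelled Sox9-LOF, at -1.12 ± 0.18 for Nr1h2 (adjusted p = 0.143) and -0.99 ± 0.30 for Lmf1 (adjusted p = 0.199, both limma). Among 14 genes of TREM2 signalling, 0 were called in HGG Sox9-GOF and 2 were called higher in EPN control than in HGG control, as were 9.51% of all genes. These were Adam10 (1.66 ± 0.17, adjusted p = 0.00471) and Adam17 (1.25 ± 0.17, adjusted p = 0.00769, both limma), proteases that shed TREM2 from the cell surface. Of 18 lysosomal genes and their regulators, 0 were called in HGG Sox9-GOF. Tfeb, a master regulator of lysosomal genes, was at -1.34 ± 0.32 (adjusted p = 0.0845) and Lamp2 at 1.19 ± 0.32 (adjusted p = 0.0998, both limma). In tumours labelled Sox9-LOF Tfeb was at -1.25 ± 0.29 (adjusted p = 0.15) and Lamp2 at 0.59 ± 0.28 (adjusted p = 0.335, both limma), against the same controls. Of 16 partners of the members' products tested, 6 were called higher in EPN control than in HGG control, where 9.51% of all genes were, among them Itgav, an integrin subunit that binds the product of Spp1 (1.76 ± 0.26, adjusted p = 0.0104, limma).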

How the data were processed

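RNA-seq of 15 mouse brain tumour libraries was used. Per the labels' protocols, poly(A) libraries were made with a stranded kit from 300 ng of RNA. The submitters' processing notes name mm10, STAR 2.5.0a and DESeq2 1.30.1. Which program counted the reads, with which strand setting and annotation, is not given in the sources used here, which leaves overlapping genes uncertain. The authors deposited 3 tables of 6 libraries, scaled separately, whose signal is each gene's count over a size factor of its library. Whole reads were recovered for 100% of values within 0.001 read, and both HGG tables held the same control reads.

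Comparisons were tested with limma 3.58.1 and a trended variance (R 4.3.3) on log2(value + 1), for genes averaging at least 10, Benjamini-Hochberg adjusted over all genes, threshold 0.05. Fold changes use each table's own scaling and this log2 scale, so those of low genes are understated. Levels, EPN control against HGG control, and the difference between the GOF effects use reads rescaled over 15 libraries by the median of ratios. edgeR 4.0.16 and DESeq2 1.42.0 on recovered reads, pseudocounts of 8 and 0.5, no filter, TMM scaling, shared spread, a replicate block and leaving out each library were alternatives. The fits were tested on simulated data. Lengths come from GENCODE for GRCm38.

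Replicate numbers are in the titles. Between HGG Sox9-GOF and HGG control, libraries of the same number deviated together from their groups. The correlations were 0.178, 0.443 and 0.224, all over 0.1, so the numbers were taken as a possible pairing. The other comparisons were not paired by this measure. HGG Sox9-GOF 1 nevertheless went best with HGG control 3, and the main fits are not paired. With the replicate number as a block, 0 genes of the set were called in HGG Sox9-GOF. The adjusted p was then 0.106 for Lpl, 0.119 for Tyrobp and 0.311 for Hpse (limma). The genes and lists were chosen with earlier results of these data known. Genes outside the set were named as up to 3 per list by smallest limma p, and as the 5 most like Gpnmb or Cst7. Ttr was named, and correlations between the genes were added, after values were seen. 0 columns of samples were left unused.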

Additional observations from a re-analysis of the deposited data

Results flagged for a closer look

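Gpnmb lay on opposite sides of the controls in the 2 tumour models. All 3 HGG Sox9-GOF libraries lay above all 3 HGG controls, and all 3 EPN Sox9-GOF libraries lay below all 3 EPN controls, with a difference of -3.45 between the log2 fold changes (EPN minus HGG). The difference was not tested, because Gpnmb was chosen for its level in HGG Sox9-GOF. Of all genes, 15.3% were higher without overlap in HGG Sox9-GOF and 12.5% lower without overlap in EPN Sox9-GOF. The fold change in EPN tumours was not called (adjusted p = 0.306, limma). Relative to macrophage genes, Gpnmb overlapped with the controls in both models.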

How the results depend on the processing

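Depth was 4665428 to 14119140 reads, and how much of the spread between libraries is counting error was not measured. The number of genes called in tumours labelled Sox9-LOF was 0, but 1 with DESeq2 and 1 with shared spread, whose share of all genes called is not given here. In HGG Sox9-GOF it was 0, but 1 with DESeq2. In EPN control against HGG control it was 1, but 0 with edgeR, 2 with DESeq2 and 0 to 2 when 1 library was left out. With the replicate number as a block, the count in EPN control against HGG control remained 1, with Spp1 at an adjusted p of 0.0807 and Lpl at 0.0392, and the block changed no other call. Of the alternatives for single genes with a test, 622 kept direction and side of the threshold, 9 newly passed it, 7 no longer did and 50 changed sign. No call changed sign. Of those for values given with no test, 183 kept their sign and 9 changed it. The causes were not tested.

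With edgeR and DESeq2, values changed sign for Tyrobp in tumours labelled Sox9-LOF (-0.048 and -0.029), for Clec7a in HGG Sox9-GOF (-0.20 and -0.19) and in EPN control against HGG control (-0.17 and -0.16), for Cst7 in EPN Sox9-GOF (0.30 and 0.34), and for Cst7 in the difference between the GOF effects, given with no test, from -1.22 to 0.12 and 0.14. DESeq2 gave 0.006 for Trem2 in EPN Sox9-GOF. Without the choroid plexus libraries, an alternative chosen after seeing the data, Clec7a was at 0.88 and Lgals3 at 0.30 in tumours labelled Sox9-LOF, Trem2 at -0.54 in HGG Sox9-GOF, and the differences between the GOF effects at 0.42 for Trem2 and 0.47 for Apoe. HGG Sox9-GOF against Sox9-LOF was then at -0.16 for Trem2, -0.012 for Clec7a and -1.79 for Spp1.

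Leaving out 1 library at a time changed the sign of these log2 fold changes, given as lowest to highest. In the libraries labelled Sox9-LOF the ranges were -0.22 to 0.43 for Tyrobp, -1.43 to 0.21 for Clec7a and -0.97 to 0.40 for Gpnmb. In HGG Sox9-GOF they were -0.26 to 0.68 for Trem2, -0.62 to 1.02 for Clec7a, -0.36 to 0.46 for Lgals3, -0.997 to 0.30 for Apoe and -0.006 to 2.47 for Hpse. In EPN Sox9-GOF they were -0.55 to 0.21 for Trem2, -0.86 to 0.001 for Tyrobp, -0.78 to 0.13 for Clec7a, -0.60 to 0.42 for Lpl, -1.113 to 1.115 for Spp1, -1.06 to 1.01 for Cst7 and -0.33 to 0.99 for Hpse. In EPN control against HGG control they were -0.61 to 1.04 for Clec7a and -1.64 to 0.85 for Hpse. For the difference between the GOF effects they were -0.81 to 0.14 for Trem2, -1.44 to 0.21 for Clec7a, -1.19 to 0.12 for Apoe, -2.35 to 0.13 for Hpse and -2.26 to 0.097 for Cst7. In HGG Sox9-GOF against Sox9-LOF the range was -1.90 to 1.12 for Spp1.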
